A study of Saccharomyces cerevisiae BY4741 with 2 samples.

Results

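The mitochondrial ribosome and translation genes of budding yeast were examined in a strain without DBP2 and in a wild-type reference strain. Members were chosen by a rule on gene names that uses no value, but with earlier results of these data known. The rule takes names of the MRP, MRPL, MRPS and RSM series, and IMG1, IMG2, MNP1, NAM9, SWS2, YMR31, MEF2, MSR1 and DIA4. The rule found 31 names on 32 rows, out of 2809 distinct names on 3146 rows. In the RefSeq annotation of assembly R64, 76 genes meet the same rule, and the 45 that were not in the rows (IMG2 and MNP1 among them) were not analysed here for their RNA. The members comprised 16 large subunit protein genes, 9 small subunit protein genes and 6 others.

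RNA came from whole cultures of Saccharomyces cerevisiae, depleted of ribosomal RNA and sequenced with strand kept. The wild-type strain was MATa his3Δ1 leu2Δ0 met15Δ0 ura3Δ0. The deletion strain, dbp2Δ, was MATa dbp2::KanMx ura3Δ0 leu2Δ0 his3Δ0 TRP1 met- lysΔ, so the genotype labels also differ in the his3 allele and in the methionine, TRP1 and lysine entries, and an effect of DBP2 cannot be told apart from these. Both were haploid, were harvested in mid-log growth at 30 °C in rich medium (2% glucose), and share lesions in leucine, uracil, histidine and methionine synthesis. DBP2 encodes a DEAD-box RNA helicase. Although 2 replicates of each strain are listed in the labels, each file holds 1 value per gene row, and so the spread between replicates is unknown and no test, error or p-value could be computed.

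The unit was taken to be FPKM (fragments mapped per kilobase of a transcript, relative to library size), and the read depth behind them is unknown. DBP2 stood on 3 rows, at 1539.7, 348 and 5.62 FPKM in wild type against 2.52, 3.70 and 3.33 FPKM in dbp2Δ. The a-cell genes STE2 (433 FPKM in both strains) and MFA2 (915 and 737 FPKM) were high, while the alpha-cell genes STE3 and MATALPHA1 did not exceed 4.10 FPKM, and both strains are labelled MATa. Of the other mating-type markers, STE6 (462 against 357 FPKM) and BAR1 (141 against 32.2 FPKM) are a-cell genes, and the alpha-cell gene SAG1 stood on 2 rows of at most 33.8 FPKM. A gene was compared when its name stood on 1 row and held no comma. Its values also had to be above 0 in both strains, with a mean of at least 1 FPKM. This left 2211 genes, with 30 of the 31 members, and no member was listed at 0. The log2 ratio is that of the deletion strain over wild type after adding 1 FPKM to each value. Where a pair of values is given for a gene, wild type comes first.

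Mitochondria keep a ribosome of their own, built on RNAs of the mitochondrial genome and on proteins that, with the exception of Var1, are encoded in the nucleus, made in the cytosol and imported. It makes a handful of hydrophobic membrane proteins of the respiratory chain and ATP synthase. Part of its proteins descend from those of bacterial ribosomes and the rest are specific to mitochondria. In yeast, many mRNAs for these proteins carry an element bound by Puf3, a Pumilio-family protein that controls the decay, location and translation of mRNAs for mitochondrial proteins. Budding yeast represses respiration in glucose, the condition of both cultures.

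The members shared a sequence that their choice by name did not use, although it was chosen for the search after sequences were seen. The element TGTANATA (N is any base), which Puf3 binds, was searched on the mRNA strand within 200 bases after the stop codon in the R64 genome, the assembly to which the build name sacCer3 refers. All 25 ribosomal protein members had it, as did 27 of all 31 members (87.1%). The share was 14.1% of 6001 protein-coding genes of the reference and 15.0% of the 1986 protein-coding genes compared. The members without it were MEF2, MRP8, RSM22 and YMR31, which are not counted here among the structural proteins of the ribosome. MSR1 and DIA4, the aminoacyl-tRNA synthetase genes among the members, had it. The same letters stood after all 45 genes that meet the name rule in R64 but were not in the rows. Among 132 cytosolic ribosomal protein genes of the reference, 5 (3.8%) had them.

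The elements are shown for the 3 large subunit and 3 small subunit genes with the lowest ratios, for MRPL17, which had a log2 ratio of 0.00 as deposited, and for IMG1 and MRP4, which had the highest ratio of their subunit. Each line runs 5′ to 3′ on the mRNA strand with 8 bases on either side, and capitals mark the element.
RSM19, chrXIV:695027-695050, minus strand: ggatctagTGTATATAgatttcta
RSM19, chrXIV:694999-695022, minus strand: atatatcaTGTAAATAagatcaag
RSM19, chrXIV:694971-694994, minus strand: actcgggcTGTATATAtatatata
MRPL6, chrVIII:392538-392561, minus strand: gaatacctTGTAAATAtcctatga
MRPL32, chrIII:119209-119232, plus strand: cttaagccTGTATATAgaaactta
MRP51, chrXVI:327700-327723, plus strand: cagagttcTGTAAATAaataaaga
MRPL20, chrXI:599052-599075, minus strand: aacaatcgTGTAAATActactcta
MRPS18, chrXIV:58863-58886, plus strand: tatattcgTGTAAATAattcgatt
MRPL17, chrXIV:171337-171360, minus strand: caatcacaTGTAAATAtcattaaa
IMG1, chrIII:209866-209889, minus strand: ccatctccTGTATATAagaaaaat
MRP4, chrVIII:100432-100455, plus strand: cctaaactTGTACATAtgcccata
RSM19, which encodes the protein of the S19 family, had 3 elements, starting 10, 38 and 66 bases after the stop codon, and MRPL19 had 2, starting at 87 and 95. The other 23 ribosomal protein members had a single one. Over the 25 genes the first element started between 10 and 136 bases after the stop codon, with a median of 46. Of the 30 elements of all members, 16 read TGTAAATA, 11 TGTATATA and 3 TGTACATA. A C stood 2 bases before the element in 21 of the 30, the position at which Puf3 is known to favour C. The longer form CNTGTANATA was present in 19 of the 25 ribosomal protein members (76.0%) against 4.2% of the reference genes. Since every ribosomal protein member carried the element, those with and without it could not be compared.

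**Figure D1:**
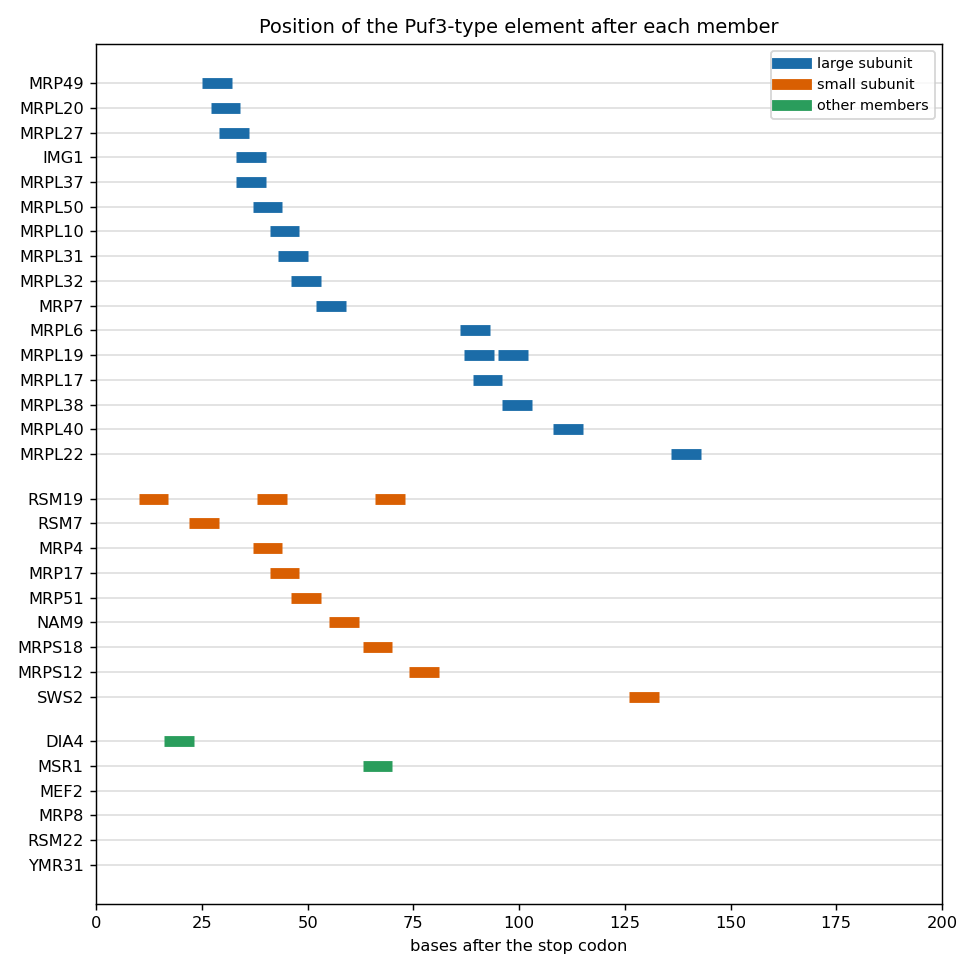
Position of each TGTANATA element (coloured bar) on the mRNA strand within 200 bases after the stop codon of the 31 members, by subunit. All 25 ribosomal protein members have at least 1 element, starting at 10 to 136 bases, and the bottom 4 members of the other group have none.

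Levels of the large subunit genes ranged from 26.3 to 408 FPKM in wild type among the 15 compared, and from 23.5 to 288 FPKM in the deletion strain. As deposited, 12 had a lower value in the deletion strain, MRPL17 was higher by less than the printed digits of its log2 ratio (0.00) and 2 others were higher, whereas 7 were lower and 8 higher after scaling to an equal total of the protein-coding genes (called equal sums below). Over all 2211 genes 54.0% were lower in the deposited values and 30.2% under equal sums, where 69.8% were higher. MRPL6, whose product belongs to the L6 family that contacts the factor-binding side of the subunit, was 403 FPKM in wild type against 150.4 FPKM in dbp2Δ, a log2 ratio of -1.42. MRPL32, of the L32 family, was 314 FPKM and 121 FPKM (log2 ratio -1.37). Its product is processed by the m-AAA protease before it joins the subunit. MRPL20, specific to mitochondria, was 355 FPKM and 161 FPKM (log2 ratio -1.13). These 3 genes were the ones at least 2-fold lower, and none was at least 2-fold higher. Over all genes, 10.9% were lower and 8.86% higher by 2-fold or more as deposited. With equal sums all 3 stayed lower but none reached 2-fold.

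A middle group of large subunit genes was lower by less than 2-fold. MRPL10, of the L15 family, was 370.0 FPKM in wild type against 219.6 FPKM in dbp2Δ. MRP7, of the L27 family that reaches towards the peptidyl transferase centre, was 261 FPKM and 149 FPKM. MRPL38, of the L14 family, was 202 FPKM and 129 FPKM. The highest large subunit gene by mean, MRPL37, was 408 FPKM and 288 FPKM and is specific to mitochondria. With equal sums these 4 genes lay between -0.34 and -0.03 on the log2 scale.

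The remaining large subunit genes differed less, and 5 of them changed sign with the scaling. MRPL19, of the L11 family at the stalk base, was 50.8 FPKM in wild type against 39.5 FPKM in dbp2Δ. MRPL50 (L9 family) was 170.1 FPKM and 135 FPKM, and MRPL40 (L24 family) was 57.6 FPKM and 48.4 FPKM. MRP49, the lowest large subunit gene, was 26.3 FPKM and 23.5 FPKM. All 4 were lower as deposited and higher with equal sums, by log2 ratios of 0.11 to 0.30. MRPL27 was 163 FPKM and 151 FPKM, lower as deposited and higher with equal sums. MRPL17 was 66.1 FPKM and 66.2 FPKM, and MRPL31 was 52.3 FPKM and 54.5 FPKM. IMG1, of the L19 family and named for its need in maintaining the mitochondrial genome, was 176 FPKM in wild type against 229 FPKM in dbp2Δ. It had the highest ratio of the subunit, 0.38 as deposited and 0.85 with equal sums. MRPL22 stood on 2 rows and was not compared. Its main row was 185 FPKM and 159 FPKM and the other was 3.58 FPKM and 2.05 FPKM, so both rows were lower in the deletion strain as deposited.

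Levels of the 9 small subunit genes ranged from 38.8 to 713 FPKM in wild type and from 54.1 to 557 FPKM in the deletion strain. As deposited 6 were lower and 3 higher, and 5 were lower and 4 higher with equal sums, beside 54.0% and 30.2% of all genes lower. RSM19 was 457 FPKM in wild type against 161 FPKM in dbp2Δ, a log2 ratio of -1.50 and the lowest of all ribosomal protein members. MRP51, whose product is the S1-like protein near the mRNA channel and interacts with mRNA-specific translational activators, was 423 FPKM and 174 FPKM (log2 ratio -1.28). MRPS18, of the S11 family, was 466 FPKM and 229 FPKM (log2 ratio -1.02). As deposited these 3 of 9 passed 2-fold, beside 10.9% of all genes. All 3 had a mean above 279 FPKM, a level at which 22.9% of all genes were at least 2-fold lower as deposited. Under equal sums RSM19 passed, at -1.03, beside 4.57% of all genes.

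RSM7, of the S7 family, was 457 FPKM in wild type against 246 FPKM in dbp2Δ. NAM9, of the S4 family, was 226 FPKM and 148 FPKM. Both were lower under either scaling, with ratios of -0.89 and -0.61 as deposited and -0.42 and -0.14 with equal sums. MRPS12, of the S12 family at the decoding centre, was the highest member in wild type, at 713 FPKM, and was 557 FPKM in dbp2Δ, where MRP8 was higher. It was lower as deposited and higher with equal sums (log2 ratio 0.11). The genes with a higher value were the 3 lowest of the subunit in wild type. MRP17 (S6 family) was 49.7 FPKM and 54.1 FPKM, SWS2 (S13 family) was 85.2 FPKM and 116 FPKM, and MRP4 (S2 family) was 38.8 FPKM and 57.3 FPKM. MRP4 had the highest ratio of the ribosomal protein members, 0.55 as deposited, and reached 1.01 with equal sums.

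**Figure D2:**
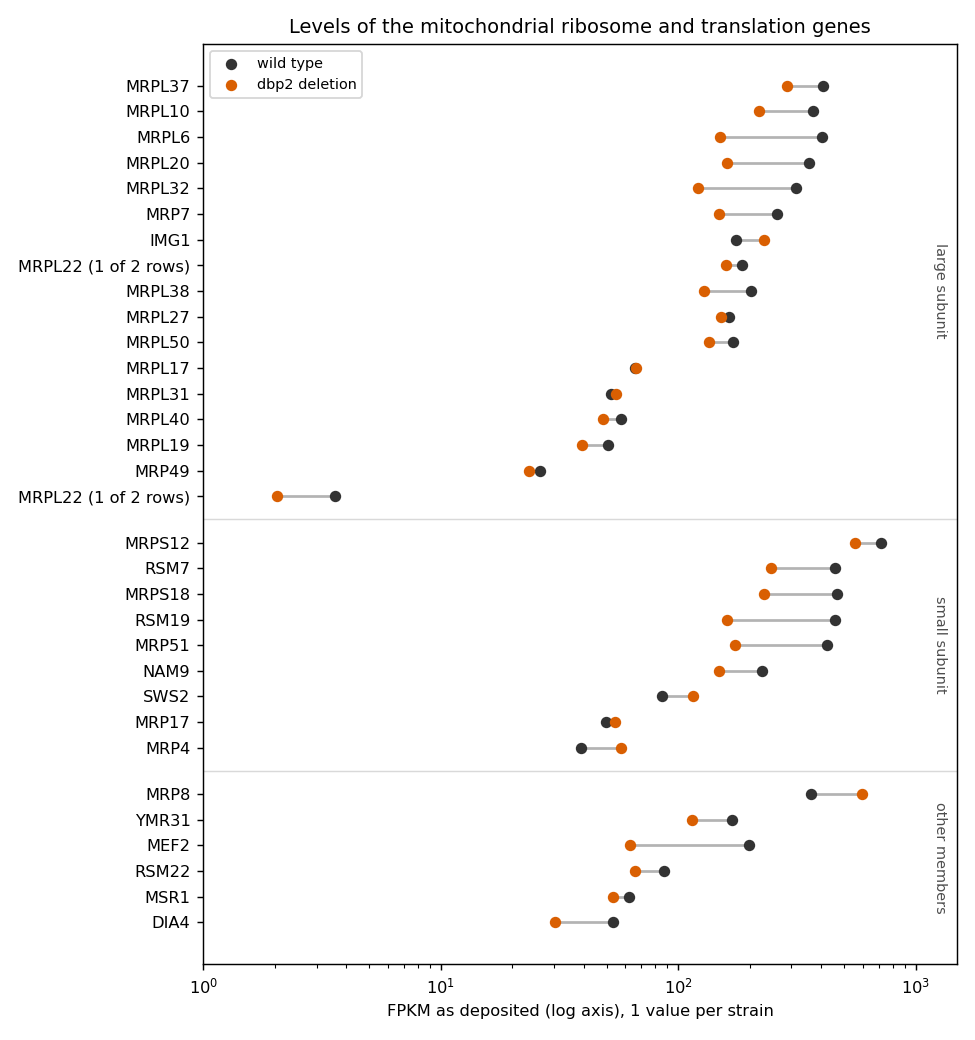
FPKM as deposited (log axis) of every member row in wild type (black) and in the dbp2 deletion strain (orange), 1 value per strain, sorted by mean level within the large subunit, the small subunit and the other members. Wide gaps lie among the more abundant genes, such as RSM19 (457 and 161 FPKM) and MEF2 (198 and 62.8 FPKM), while MRP4, SWS2, IMG1 and MRP8 are higher in the deletion strain.

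Of the 6 other members, MEF2 had the lowest ratio of all members. It encodes a G-type translation factor that takes part in recycling mitochondrial ribosomes, and was 198 FPKM in wild type against 62.8 FPKM in dbp2Δ, lower by 3.16-fold (log2 ratio -1.64, and -1.18 with equal sums). DIA4, a probable mitochondrial seryl-tRNA synthetase gene, was 53.1 FPKM and 30.3 FPKM. MSR1, the mitochondrial arginyl-tRNA synthetase gene, was 62.0 FPKM and 53.4 FPKM and turned to a higher value with equal sums. RSM22, a methyltransferase-like gene tied to the small subunit, was 87.5 FPKM and 65.5 FPKM, with a log2 ratio of 0.05 under equal sums. YMR31, named as a ribosomal protein gene but later assigned to the 2-oxoglutarate dehydrogenase complex and listed as KGD4 in RefSeq, was 169 FPKM and 114 FPKM. MRP8 went the other way, at 362 FPKM in wild type against 597 FPKM in dbp2Δ (log2 ratio 0.72, and 1.19 with equal sums). Despite its name its product is not an established part of the mitochondrial ribosome.

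**Figure D3:**
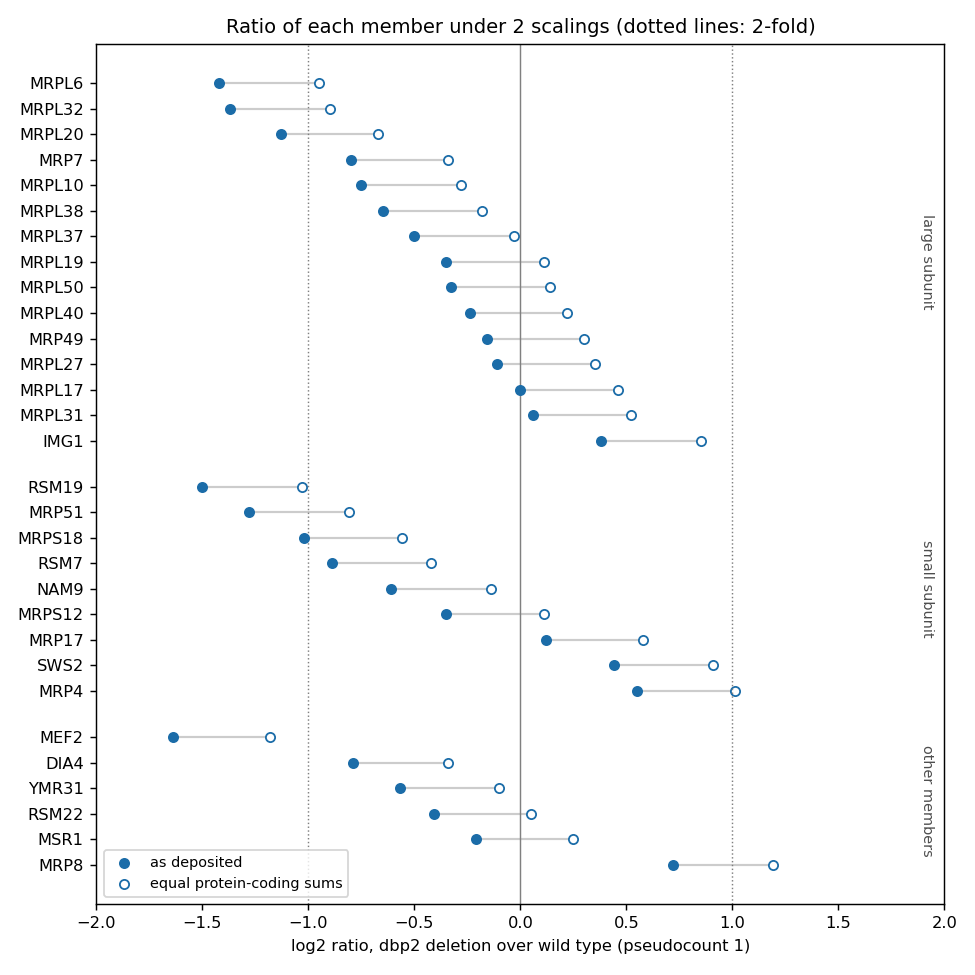
Log2 ratio of the deletion strain over wild type for the 30 members compared, as deposited (filled) and scaled to an equal total of the protein-coding genes (open). The shift of about 0.47 turns 23 members lower and 7 higher into 15 and 15 (MRPL17, at 0.00 as deposited, counted as higher), and leaves MEF2 and RSM19 past 2-fold on the lower side and MRP8 and MRP4 on the higher side.

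Set against all genes compared, the members' medians were lower under each scaling. Scaling to equal sums added up to 0.47 to a ratio and moved the median of all genes from -0.08 to 0.38. The large subunit median was -0.35 as deposited and 0.11 with equal sums, in both cases a difference of -0.27 from the median of all genes. For the small subunit it was -0.61 and -0.14, with differences of -0.53 and -0.52. Over all 30 members the median was -0.46 as deposited and 0.01 with equal sums. Lower values of 2-fold or more were found in 7 of the 30 members and higher ones in 0 as deposited, where 10.9% and 8.86% of all genes passed. With equal sums these counts were 2 and 2, where 4.57% and 19.9% of all genes passed. No test of these differences was possible with 1 value per strain.

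Within the large subunit, the 9 genes with bacterial homologs had a median log2 ratio of -0.65 and the 6 that are specific to mitochondria one of -0.14. With equal sums these were -0.18 and 0.32. The median wild-type levels of these groups also differed, at 202 and 115 FPKM. All 9 small subunit members belong to families with bacterial homologs, so the classes could not be set side by side there.

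The ratio moved with the level. Among the 24 ribosomal protein members compared, the log2 ratio and the log2 mean FPKM had Pearson's r = -0.62 and Spearman's rho = -0.69, given as a description over genes that share both libraries and whose ratio and mean are made from the same values. Over all 2211 genes the same measures were -0.16 and -0.26. When all genes were split into 5 equal groups by mean FPKM, the group from 24.3 to 61.7 FPKM had a median of 0.20 and its 8 members one of -0.18. From 126 to 279 FPKM the medians were -0.25 for all genes and -0.65 for 11 members, and 10.4% of all genes and 4 of the 11 members were at least 2-fold lower. In the group above 279 FPKM the medians were -0.48 for all genes and -0.82 for 8 members. There 22.9% of all genes and 3 of the 8 members were at least 2-fold lower. The 3 members between 61.7 and 126 FPKM had the median of their group, 0.00. The part of this trend in the members' lower values was not tested.

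The spread among the ribosomal protein members was smaller in the deletion strain, a description made from the same values as the trend with level. The SD of log2 FPKM over the 24 genes was 1.40 in wild type and 1.05 in the deletion strain, which any common scaling leaves as it is. The highest gene stood 27.1-fold above the lowest in wild type and 23.7-fold in the deletion strain. For the small subunit these ratios were 18.4 and 10.3, and for the large subunit 15.5 and 12.3. Over all genes compared the SD was 2.68 and 2.57. Of the lists set beside the members below, cytosolic ribosomal protein genes had SDs of 1.90 in wild type and 2.02 in dbp2Δ. Those of other mitochondrial translation genes were 1.01 and 1.09, and those of respiratory chain and ATP synthase genes 0.96 and 0.77. The order of the genes was largely kept, with Spearman's rho = 0.88 between strains. The log2 ratio had little relation to coding length (rho = -0.16).

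**Figure D4:**
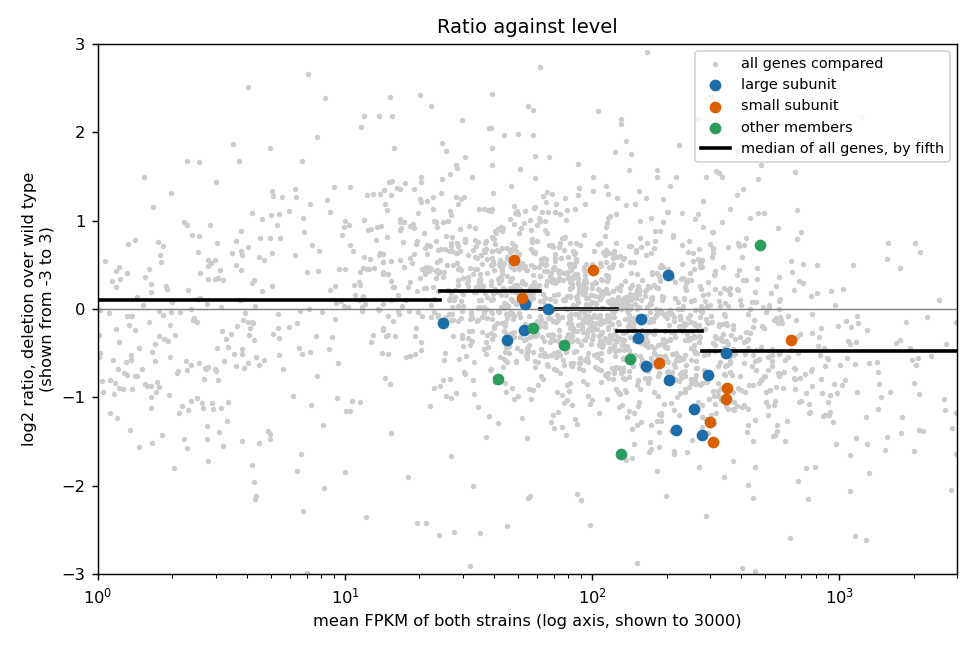
Log2 ratio against the mean FPKM of both strains (log axis) for all genes compared (grey) and the members (colours by subunit), with the median of all genes in each of 5 equal groups by level as black bars. The bars fall from 0.20 in the second group to -0.48 in the highest, and most members above 126 FPKM lie below the bar of their group.

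Members lie on 8 chromosomes, with 11 on XIV, 7 on XI and 4 on VIII, and each has a single coding exon. Some sit beside each other. RSM19 (chromosome XIV, 695052 to 695327) and MRPS12 (694361 to 694822) are tandem on the minus strand with 229 bases between them, and had log2 ratios of -1.50 and -0.35. Genes that start from the same intergenic region as a member were compared where both had values, which gave 14 divergent pairs. As deposited both genes were lower in 6 pairs, the member was lower and its neighbour higher in 7, and the reverse held in 1. With equal sums these counts were 2, 7 and 3, and both genes were higher in 2. Pairs that do not share an upstream region were counted in the same way. As deposited, in 17 convergent pairs both were lower in 7, and the member was lower and its neighbour higher in 6. The reverse held in 2 and both were higher in 1, while the pair of MRPL17, at 0.00, fell in none of these. With equal sums these counts were 2, 7, 4 and 4. In 18 tandem pairs, which hold RSM19 and MRPS12 from both sides, they were 7, 4, 4 and 3 as deposited and 2, 3, 3 and 10 with equal sums. As deposited the divergent neighbours' median log2 ratio was -0.02. MRP51 and its neighbour DBP1, another DEAD-box helicase gene, were both lower, the latter at 34.2 FPKM in wild type against 16.9 FPKM in dbp2Δ.

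In 2 of these pairs, singled out after their values were seen, the member was at least 2-fold lower and its neighbour at least 2-fold higher as deposited. RSM19 shares its upstream region with DBP6, a DEAD-box helicase gene of ribosome biogenesis in the nucleolus, which was 70.0 FPKM in wild type against 211 FPKM in dbp2Δ (log2 ratio 1.58). MRPL6 shares its region with IMP3, a gene of small subunit processing for the cytosolic ribosome, which was 148 FPKM and 316 FPKM (log2 ratio 1.09). Under equal sums the members of these pairs were still lower, at -1.03 and -0.95. The regions between the start codons are shown because opposite values came from each. They run 5′ to 3′ towards the member, and capitals mark matches on either strand to GATGAG (the PAC motif of ribosome biogenesis promoters) and CCAAT (the motif of the Hap2/3/4/5 activator of respiratory genes).
DBP6 to RSM19, chrXIV:695328-695594, minus strand: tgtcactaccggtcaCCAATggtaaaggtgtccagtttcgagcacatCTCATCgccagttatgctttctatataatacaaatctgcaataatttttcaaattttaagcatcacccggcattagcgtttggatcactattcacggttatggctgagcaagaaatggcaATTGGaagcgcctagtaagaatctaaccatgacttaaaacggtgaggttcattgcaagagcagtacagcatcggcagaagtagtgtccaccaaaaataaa
IMP3 to MRPL6, chrVIII:393284-393533, minus strand: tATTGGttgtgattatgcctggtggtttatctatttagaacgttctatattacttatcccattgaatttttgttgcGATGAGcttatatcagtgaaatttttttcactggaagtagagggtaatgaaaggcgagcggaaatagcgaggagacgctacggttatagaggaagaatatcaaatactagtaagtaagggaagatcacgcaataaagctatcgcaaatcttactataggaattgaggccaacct
Both regions hold GATGAG once, read as CTCATC in the RSM19 region, 53 bases from the DBP6 start codon and 82 bases from that of IMP3. In windows of 250 bases before the start codon, 4 of 31 members (12.9%) and 17.0% of the reference genes held GATGAG on either strand, and 9 members (29.0%) against 35.4% held CCAAT. AAAAATTTT, a core of the ribosome biogenesis element RRPE, was found before 0 of 31 members and 6.7% of reference genes. TGACTC, the Gcn4 site, was found before 0 and 6.2%. AGGGG, the stress response element, was found before 4 members (12.9%) and 18.8%, and TTACCCG, the Reb1 site, before 4 members and 7.0%. These matches describe letters in the windows, and binding at them was not tested.

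Other genes of mitochondrial translation, from a list of 64 genes that the name rule does not cover, had 16 in the rows and 13 compared, which are all named here. Of these 8 (61.5%) were lower and 5 higher under either scaling, beside 54.0% of all genes lower as deposited and 30.2% with equal sums. As deposited 1 was past 2-fold on the lower side and 0 on the higher side, beside 10.9% and 8.86% of all genes. The shares as deposited lay near the background, but the share lower with equal sums lay above it. The list's median log2 ratio was -0.59 as deposited and -0.12 with equal sums, beside -0.08 and 0.38 for all genes compared. The 4 aminoacyl-tRNA synthetase genes of this list that were compared were all lower under either scaling. MSD1, for aspartyl-tRNA, was lower by the least (log2 ratio -0.49 as deposited and near 0 with equal sums). Of the synthetase genes among the members, DIA4 was lower under either scaling and MSR1 was higher with equal sums (log2 ratio 0.25). MSY1, for tyrosyl-tRNA, was 123 FPKM in wild type against 49.6 FPKM in dbp2Δ, and was the gene past 2-fold. MST1, for threonyl-tRNA, was 47.9 FPKM and 29.3 FPKM, and MSK1, for lysyl-tRNA, was 109 FPKM and 68.0 FPKM. SLM5, for asparaginyl-tRNA, stood on 2 rows, both higher in the deletion strain (5.32 and 5.72 FPKM, and 10.9 and 23.9 FPKM).

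The initiation factor gene IFM1 was 31.5 FPKM in wild type against 16.8 FPKM in dbp2Δ, and AIM23, a factor with a role like that of bacterial initiation factors, was 42.2 FPKM and 23.7 FPKM. RRF1, for ribosome recycling, stood on 2 rows, both lower (24.2 and 15.3 FPKM, and 5.96 and 3.59 FPKM). MTG2, a GTPase of large subunit assembly, was 94.7 FPKM and 48.8 FPKM. Among the genes listed as translational activators, CBP1, for cytochrome b mRNA, was 91.9 FPKM and 114 FPKM. CBT1, an RNA-processing gene listed with them, was lower as deposited at 434 FPKM and 288 FPKM. PET494, for a cytochrome oxidase mRNA, was 36.1 FPKM and 36.7 FPKM. MDM38, which binds mitochondrial ribosomes at the inner membrane, was 78.2 FPKM and 108 FPKM. FYV4 and RTC6, whose products are also ribosomal proteins of mitochondria, were both higher as deposited. The name rule does not take them, so the subunit medians given above leave them out. FYV4 was 37.2 FPKM in wild type against 43.7 FPKM in dbp2Δ, and RTC6 was 86.3 FPKM against 97.6 FPKM. VAR1, the ribosomal protein gene of the mitochondrial genome, was listed at 0 in both strains, which in such output can be a failed estimate.

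Cytosolic ribosomal protein genes and respiratory chain genes, the lists nearest in function, were set beside the members without a test. The 40 cytosolic ribosomal protein genes compared had a median log2 ratio of -0.51 as deposited and -0.05 with equal sums, between the medians of the mitochondrial subunits as deposited, at a median level of 3773 FPKM in wild type. The 12 respiratory chain and ATP synthase genes compared, whose mitochondrial partners this ribosome makes, had a median of 1.19 as deposited and 1.66 with equal sums. Their lowest ratio, that of ATP4 at 0.32 (608 FPKM and 761 FPKM), was below those of IMG1, SWS2 and MRP4 and above those of the other ribosomal protein members. Summed over genes, the 24 ribosomal protein members held 5991 FPKM in wild type against 3709 FPKM in dbp2Δ, and the 12 respiratory genes 3418 FPKM and 6752 FPKM. The sum over all genes compared was also lower in dbp2Δ, at 2043404 FPKM in wild type against 1388124 FPKM. In RNA from whole cultures, fewer cells with an mRNA and less of it per cell cannot be told apart.

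**Figure D5:**
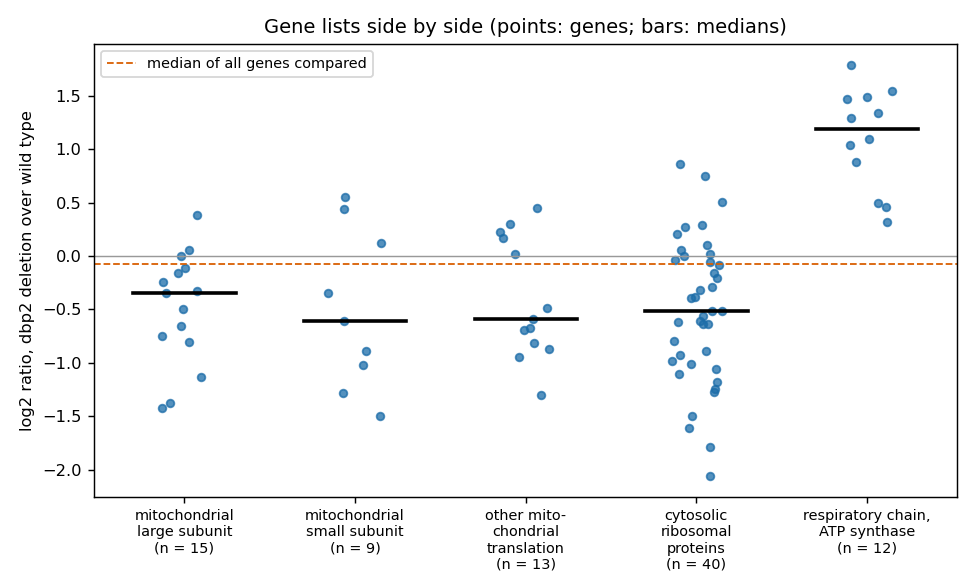
Log2 ratio as deposited of each gene compared (points) and the median of each list (bars). The lists are members of the 2 mitochondrial ribosome subunits, other mitochondrial translation genes, cytosolic ribosomal proteins, and the respiratory chain with ATP synthase. FYV4 and RTC6 are among the other mitochondrial translation genes. The medians are -0.35, -0.61, -0.59, -0.51 and 1.19, and with equal protein-coding sums that of the large subunit turns to 0.11.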

How the data were processed

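RNA of 1 wild-type and 1 dbp2 deletion sample was analysed. The deposited values were taken as FPKM, since Cuffdiff 2.1.1 is listed, with genome build sacCer3, in the submitters' processing notes and the values are not whole numbers. The sources used here do not give how the authors scaled the strains to each other or combined replicates, nor the aligner, the annotation and the use of strand in counting. Reads of MRP4 and MRPL19, which overlap other annotated genes, are therefore uncertain. No counts are given, so depth is unknown and no interval was computed.

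Ratios were log2 of (deletion + 1) / (wild type + 1). Names on several rows, names with a comma, values of 0 and means under 1 FPKM were left out. Equal sums refers to 1986 protein-coding genes compared. Every member is named, by rule. Members and lists were chosen with earlier results of these data known, and the motifs after sequences were seen. Alternatives were other pseudocounts, filters, scalings, row choices and a 1.5-fold limit. Letters come from RefSeq R64. The computation was tested on simulated data and used Python 3.11.15, numpy 2.4.6, pandas 2.3.3, scipy 1.17.1 and matplotlib 3.10.9.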

Additional observations from a re-analysis of the deposited data

How the results depend on the processing

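Scaling to equal protein-coding sums, but not to equal medians, turned the direction for the large subunit and for the members as a whole. With equal protein-coding sums the median log2 ratio was 0.11 for the large subunit, -0.14 for the small subunit and 0.01 for all members. The median of all genes compared was then 0.38, and the members' medians stayed below it. The number at least 2-fold lower was then 0 in the large subunit, 1 in the small subunit and 2 over all members, and the number at least 2-fold higher was 1 in the small subunit and 2 over all members, where 4.57% of all genes were lower and 19.9% higher. With a limit of 1.5-fold, 6 large subunit genes, 5 small subunit genes and 13 of all members were lower and 1 of all members was higher, where 23.7% and 18.6% of all genes passed. The other results moved by less than 0.1 in the median or by at most 1.5 times in a count, under pseudocounts of 0.1 and 10, no filter on low values, a mean of at least 10 FPKM, equal medians, and either use of repeated rows. Depth is unknown, so its limit on low genes could not be stated. No replicate could be left out. No paired analysis was possible because each strain has 1 column and no test was run.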

Other observations

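The TGTANATA element also stood after 272 protein-coding genes compared that are not members. Their median log2 ratio was -0.14, with 162 lower and 34 at least 2-fold lower as deposited, while the 26 members compared that carry it had a median of -0.43, with 20 lower and 6 at least 2-fold lower. The 4 members without it had a median of -0.49, with 3 lower, and ran from -1.64 to 0.72. None of these 4 is counted among the structural ribosomal proteins, so they differ from the carriers in more than the element, whose part was not tested. The 1688 protein-coding genes compared without it had a median of -0.03, with 868 lower and 143 at least 2-fold lower. Over all 2211 genes compared, a wider set than the 1986 protein-coding ones used for these counts, 54.0% were lower and 10.9% at least 2-fold lower. Among the carriers with a mean of at least 10 FPKM, chosen after their values were seen, the lowest ratios belonged to HIS4 of histidine synthesis (810 FPKM in wild type against 103 FPKM in dbp2Δ) and to YLF2 (60.4 and 9.61 FPKM). Next came ARG1 (148 and 32.3 FPKM), BAT2 (2071 and 571 FPKM) and TOM7, of the outer membrane import complex of mitochondria (287 and 79.8 FPKM). The highest belonged to CUP9, a repressor gene, at 47.3 FPKM and 213 FPKM. It was followed by YJL016W (57.0 and 216 FPKM) and GLK1, for glucokinase (235 and 731 FPKM).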
